A study of Drosophila melanogaster with 3 samples.

Results

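Binding of the tagged CG16863 protein was examined at 10 core Polycomb group genes in Drosophila melanogaster embryos, out of 18164 genes on the 6 chromosome arms used. They were taken by name (ph-p, ph-d, Pc, Psc, Su(z)2 and Sce of Polycomb repressive complex 1; pho of the Pho repressive complex; E(z), Su(z)12 and esc of Polycomb repressive complex 2). For each gene, all peak summits were read from 2 kb upstream of its annotated start to its end (Ensembl BDGP6 annotation, same coordinates as dm6), and no member window overlapped another. The binding data were chromatin immunoprecipitations with an antibody against GFP, sequenced from 3 biological replicates of 1 group. All libraries came from whole embryos of 0 to 16 h, male and female together, of the transgenic strain CG16863-GFP, which stably expresses CG16863 with GFP fused at its C terminus. There was no second group, so no condition could be compared, and an embryo pool of this age mixes all cell types and many stages.

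Polycomb group proteins keep developmental genes, the Hox genes among them, silent in cells where they are not needed. Complex 2 methylates histone H3 at lysine 27 through E(z), with Su(z)12 and Esc as further core subunits. Complex 1 holds Polycomb (Pc), which reads that mark, Sce, which ubiquitinates histone H2A, Posterior sex combs (Psc) or its relative Su(z)2, and Polyhomeotic (Ph). Pho binds DNA and helps to bring these complexes to chromatin. In flies, Ph is encoded by a pair of neighbouring copies, ph-p (proximal) and ph-d (distal), and the ph locus is itself a known Polycomb target.

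A peak of the set that the authors chose by irreproducible discovery rate (IDR) analysis, made on pooled replicates, is called reproducible here; other peaks come from the relaxed lists, which are meant to hold much background. The IDR set held 3953 peaks, the pooled relaxed list 23571, and the replicate lists 24378, 30000 and 29769. Peak height is the authors' signal value. Relative signal is the height in a replicate divided by the median height of that replicate at reproducible summits, so 1 is a typical reproducible peak. Read depth was not known, so no counting error could be given, and the SD over replicates is the only error. No control library was analysed here, so how much of each peak depends on the tag is not known.

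Sequences of the ph copies at their strongest summits and at the facing junction are shown first. They run 5′ to 3′ on the minus strand, the strand of both genes. The first is the part of the ph-p intron that held the strongest summit of all member genes (X:2137229-2137508, dm6), with the 208 bases that have no ph-d counterpart in capitals. The second is the matching junction upstream of ph-d (X:2123661-2123747), with the 15 bases that face that stretch in capitals. The third is the strongest summit of ph-d (X:2124022-2124082), with the summit base in capitals.
ph-p stretch: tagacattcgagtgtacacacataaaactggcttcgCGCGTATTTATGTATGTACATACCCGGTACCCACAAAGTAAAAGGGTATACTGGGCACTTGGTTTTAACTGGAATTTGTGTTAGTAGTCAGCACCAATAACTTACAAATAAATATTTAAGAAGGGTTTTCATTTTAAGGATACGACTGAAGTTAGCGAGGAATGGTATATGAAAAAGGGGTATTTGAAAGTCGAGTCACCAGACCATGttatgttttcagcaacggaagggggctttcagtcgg
ph-d junction: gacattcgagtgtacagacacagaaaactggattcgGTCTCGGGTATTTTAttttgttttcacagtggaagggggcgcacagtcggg
ph-d summit: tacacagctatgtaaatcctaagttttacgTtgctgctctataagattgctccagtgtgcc
In the first run the pooled summit is base 162, and the summits of replicates 1, 2 and 3 are bases 152, 171 and 178, counted from 1 at its 5′ end.

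All 10 genes had at least 1 pooled relaxed summit in their window, as did 62.1% of all genes, 66.9% of protein-coding genes and 75.6% of protein-coding genes with windows as long as those of the members. Reproducible summits were found at 6 of the 10: 5 at ph-p, 2 at ph-d, 2 at Su(z)12, and 1 each at Psc, pho and E(z). The background share of genes with a reproducible summit was 22.2% of all genes, 25.3% of protein-coding genes and 28.1% of the 7431 protein-coding genes of like window length. Pc, Su(z)2, Sce and esc had none. At least 2 reproducible summits were found at 3 members, against 5.53% of all genes, 6.70% of protein-coding genes and 6.04% of those of like window length. The members thus held 12 reproducible summits among 30 pooled ones (40.0%, against 16.8% over the whole pooled list). This share leans on ph-p, where all 5 pooled summits were reproducible. The member windows covered 99.8 kb, with 0.120 reproducible summits per kb. Over all bases of the chromosome arms, inside and outside such windows, there were 0.0295 per kb, so the denominators are unlike. Without ph-p the member figure was 0.0818 per kb, from 7 summits. Since members were chosen with earlier results of these data known, the counts were set beside the background without a test.

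**Figure D1:**
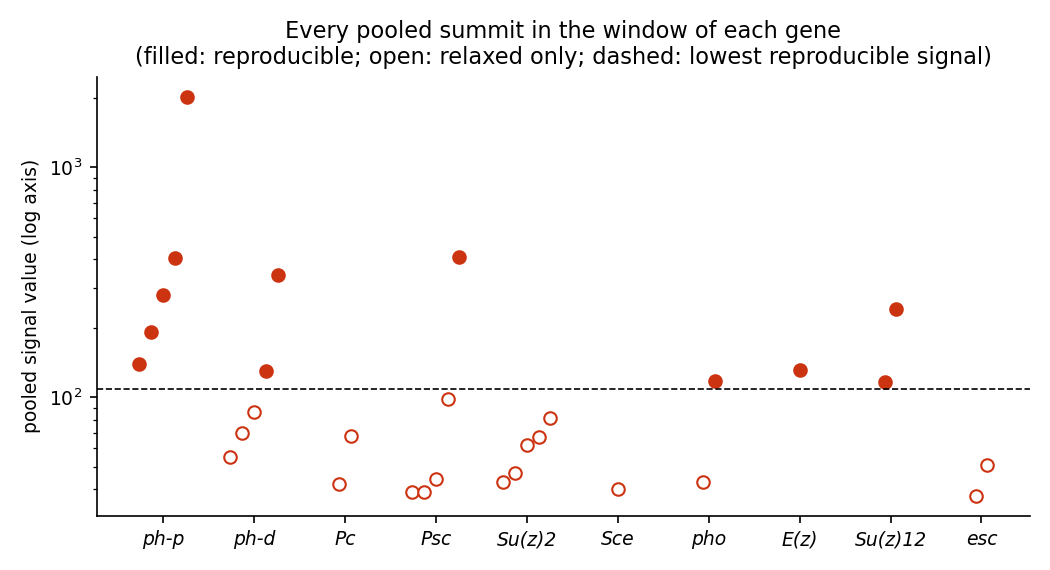
Signal value of each pooled summit (vertical, log axis, authors' units) in the window of each Polycomb group gene (horizontal); filled points are reproducible, open points relaxed only, and the dashed line is the lowest pooled signal of the reproducible set, 108.6. ph-p alone has a point near 2027, and pho, E(z) and the weaker summits of ph-d and Su(z)12 sit just above the line.

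Promoter summits, within 500 bp of a start site of the gene, were found at 5 members (ph-p, ph-d, pho, E(z) and Su(z)12), against 14.3% of all genes, 17.1% of protein-coding genes and 20.5% of protein-coding genes of like window length. Of the 12 reproducible member summits, 8 were promoter summits by this measure, 4 of them downstream and 4 upstream of the start site; of all reproducible summits, 50.2% lay within 500 bp of a start site of any gene. By annotation, 5 of the 12 lay in introns, 4 in 5′ UTRs and 3 between genes, against 46.6%, 9.59% and 38.5% of all reproducible summits. None lay in a coding exon, which held 0.632% of all reproducible summits and 3 of the 18 other pooled member summits. The promoter count rested on weak peaks: peaks shared by replicates 2 and 3 alone, among the strongest of each, gave 3 genes, as did replicates 1 and 2 alone, and a start-site distance of 200 bp also gave 3. The lowest pooled signal in the reproducible set was 108.6. Reproducible summits just above it were Su(z)12 at 116.4, pho at 118.2, the second ph-d summit at 130.6 and E(z) at 131.5. Just below it, and not reproducible, lay Psc at 98.7, ph-d at 86.8 and Su(z)2 at 81.3.

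**Figure D2:**
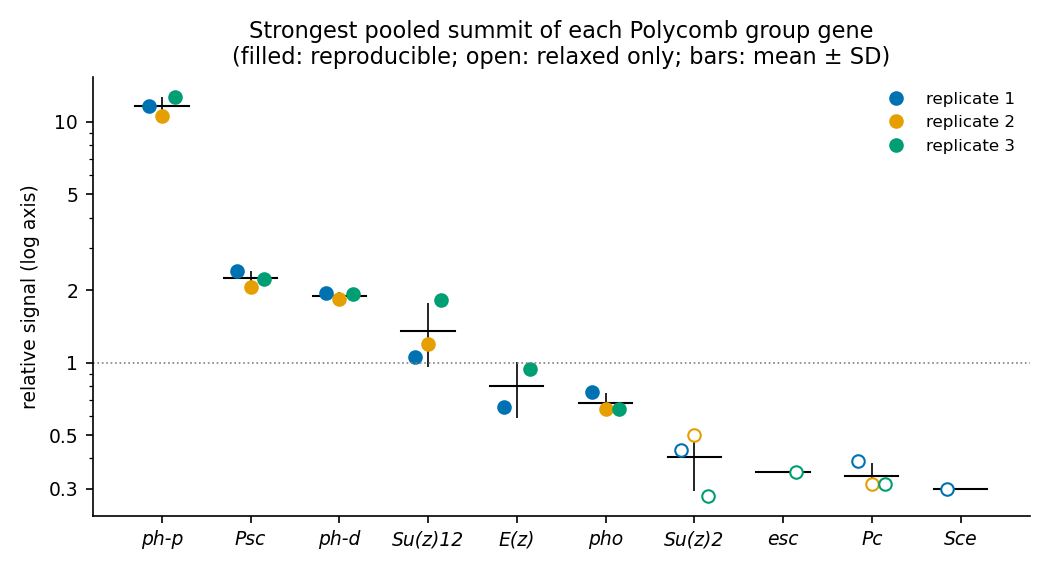
Relative signal (vertical, log axis) at the strongest pooled summit of each Polycomb group gene (horizontal), with a point per replicate, a bar at the mean and a line of ± 1 SD; filled points mark reproducible summits, and the dotted line is the typical reproducible peak. ph-p lies at 10.6 to 12.7 in the 3 replicates, and the 4 genes on the right lie below 0.6.

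ph-p (FBgn0004861, X 2126210 to 2138371, minus strand) encodes the proximal Polyhomeotic, a complex 1 subunit that can form polymers. Its strongest summit, at X 2137347 (peak 2137172 to 2137577), lay in the first intron, 1024 bp downstream of the first start site and 492 bp upstream of the start site at 2136855. Its relative signal was 11.7 in replicate 1, 10.6 in replicate 2 and 12.7 in replicate 3 (11.7 ± 1.02, SD, n = 3). The summits of the single replicates lay within 26 bp of each other. Among all reproducible summits it ranked 12 by mean relative signal. Among all relaxed peaks of a replicate it ranked 13, 15 and 11 in replicates 1, 2 and 3. For scale, percentiles 90 and 99 of all reproducible summits were 2.41 and 7.22. The summits ranked next to it were near Ugalt (13.4 ± 1.67) and CG11050 (12.4 ± 0.863) above and Lk6 (11.4 ± 0.773) and CNBP (11.4 ± 1.52) below (SD, n = 3 each), and the replicate ranges of all 4 overlapped that of ph-p.

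The other 4 reproducible summits of ph-p were much weaker. At X 2137974, in the first 5′ UTR exon 397 bp downstream of the first start site, relative signal was 2.18, 2.93 and 2.14 in replicates 1 to 3 (2.42 ± 0.446, SD, n = 3). At X 2136542, in a 5′ UTR 80 bp downstream of the innermost start site, it was 0.874, 0.579 and 0.951 (0.801 ± 0.196). A pair of intron summits farther into the gene reached 1.55, 1.67 and 1.41 at X 2135396 (1.54 ± 0.131) and 0.959, 1.25 and 0.863 at X 2134472 (1.02 ± 0.200). All 5 lay within 3502 bp at the end of the gene that holds the 3 start sites, and the strongest held 62.3 to 69.4% of the summed relaxed signal of the window in each replicate. The weaker ones thus ran from below to above a typical reproducible peak, and the strongest stood above the other 4 in each replicate. Counts of 5 or more reproducible summits, as at ph-p, were found in the windows of 0.473% of all genes, 0.574% of protein-coding genes and 0.0807% of those with windows as long as those of the members. Among the 12297 protein-coding genes with a window no longer than that of ph-p, 6 had 5 or more. They were ph-p, Kdm2, Pgk, Bacc, ced-6 and HmgZ, of which Pgk, Bacc, ced-6 and HmgZ are named after their values were seen. The windows of Pgk and Bacc overlap, and all 5 summits of Bacc are among those of Pgk. The highest mean relative signal in the other 5 windows ran from 1.03 at Kdm2 to 5.89 at HmgZ.

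**Figure D3:**
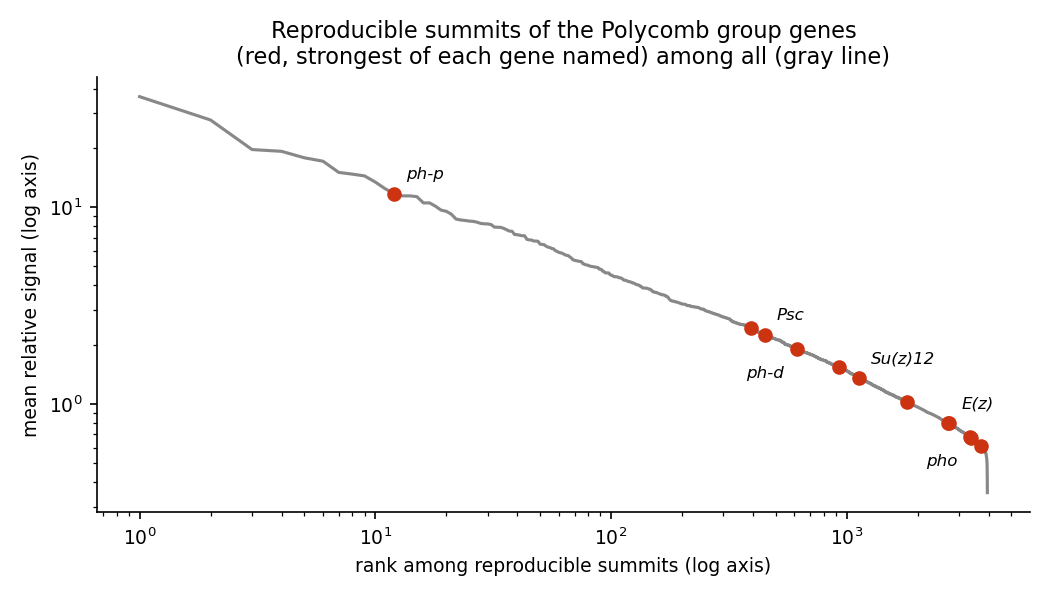
Mean relative signal (vertical, log axis) of every reproducible summit by its rank (horizontal, log axis; gray line), with the 12 member summits as red points and the strongest of each gene named. The strongest ph-p summit is at rank 12, and the next highest member summit, also at ph-p, is at rank 392.

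ph-d (FBgn0004860, X 2115727 to 2123286, minus strand) encodes the distal Polyhomeotic and lies downstream of ph-p on the same strand. Its strongest summit lay between the copies, at X 2124052 (peak 2123963 to 2124132), 766 bp upstream of its first start site. Relative signal there was 1.95, 1.83 and 1.92 in replicates 1, 2 and 3 (1.90 ± 0.0631, SD, n = 3). This summit ranked 610, 699 and 621 among all relaxed peaks of those replicates. A second reproducible summit lay in an intron at X 2122121, 329 bp upstream of the inner start site, with 0.591, 0.816 and 0.615 (0.674 ± 0.123). The 3 other pooled summits were not reproducible. One of them lay in the 5′ UTR at X 2123151, 135 bp downstream of the first start site, with 0.553 in replicate 1, 0.648 in replicate 2 and no peak within 100 bp in replicate 3. The peak at X 2124052 was 170 bp wide, whereas the median width of the reproducible set was 430 bp. Of that set, 84.8% of peaks were exactly 430 bp wide and 6.58% were at most 200 bp wide. Widths therefore do not follow a smooth distribution.

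The highest signal in the ph-p window exceeded that in the ph-d window 5.99-fold in replicate 1, 5.82-fold in replicate 2 and 6.59-fold in replicate 3. On the log2 scale the ratios were 2.58, 2.54 and 2.72, with a mean of 2.61 (SD 0.093, n = 3), or 6.12-fold. The copies did not overlap in any replicate, and the difference was far larger than the spread between replicates. An exact sign-flip permutation test, two-sided, gave p = 0.25, which is the smallest p that 3 pairs allow. The size depends on where the ph-d window starts: with 500 bp upstream its strongest summit falls outside, and the mean log2 ratio was 4.12.

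The copies share long stretches of sequence, but the strongest ph-p summit lay in bases with no ph-d counterpart. BLASTN aligned 5 collinear stretches, which covered 40.3% of the ph-p window and 59.8% of the ph-d window. The ph-p start site at 2136855 aligned base for base with the first ph-d start site at 2123286, within a stretch of 518 ph-p bases and 90.7% identity (X 2136747 to 2137264, against ph-d 2123181 to 2123696). Just upstream of that stretch, ph-p had 208 bases (X 2137265 to 2137472) where ph-d had 15. The pooled summit and the summits of all 3 replicates fell inside these 208 bases, 82 bp from the nearer edge for the pooled one. Alignment with equal match and mismatch scores, and with a word size of 7, both chosen after seeing the data, gave the same 208 bases. The GC content of the stretch was 37.5%.

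**Figure D4:**
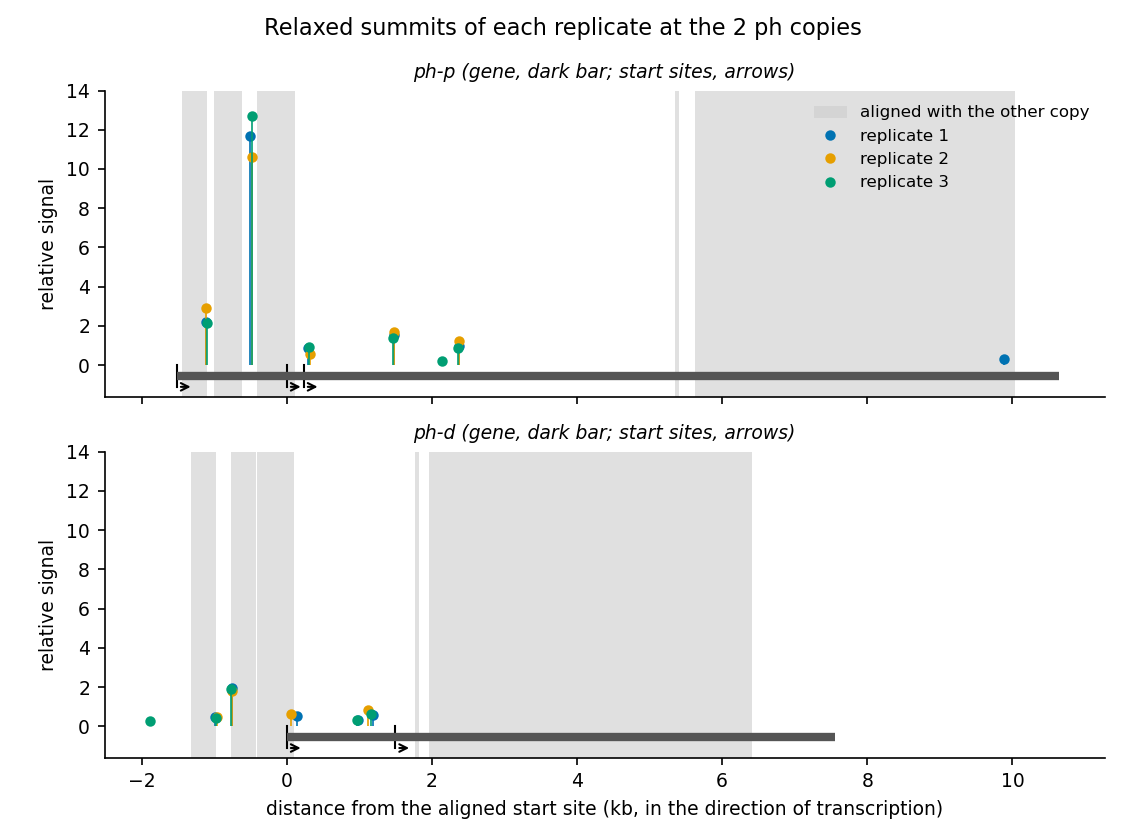
Relative signal (vertical) of every relaxed summit in each replicate (colours) at ph-p (top) and ph-d (bottom), by distance in kb from the start site that aligns between the copies (horizontal, in the direction of transcription); gray shading marks stretches that align with the other copy, dark bars the genes and arrows their start sites. The strongest ph-p summits, at 10.6 to 12.7, stand in the white gap between shaded stretches about 0.5 kb upstream of the aligned start site, where the ph-d panel has next to no gap and no summit.

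Outside that stretch, sites shared by the copies could be compared directly. Of the 5 ph-p summits, 1 lay in an aligned stretch, the one at X 2137974. Its ph-d counterpart, X 2124279, was 9 bp from a relaxed ph-d summit at X 2124288 that was not reproducible. Relative signal at the ph-d site was 0.461, 0.501 and 0.411 in replicates 1, 2 and 3 (0.458 ± 0.0452, SD, n = 3), against 2.18, 2.93 and 2.14 at the ph-p site. The log2 ratios were 2.24, 2.55 and 2.38, with a mean of 2.39 (SD 0.154), so the values of this matched pair of summits did not overlap. Over the 96 ph-p bases next to this summit that aligned, 80 (83.3%) were identical in ph-d. The strongest ph-d summit, X 2124052, was the outermost base of an aligned stretch of 70.5% identity. Its ph-p counterpart was X 2137855, 119 bp from the ph-p summit at X 2137974. Past that edge, the rest of the ph-d peak (to X 2124132) and the replicate 3 summit, X 2124058, lay in unaligned bases. Relative signal at X 2124052 was 1.95, 1.83 and 1.92 in replicates 1, 2 and 3. That is much nearer to the values at X 2137974, so the size of the contrast depends on which ph-d summit is matched.

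Because reads that fit both copies may be lost or shared, the uniqueness of short runs in the genome was measured. In the peaks at both strongest summits every run of 50 or 100 bases occurred once in the genome, as did 96.2% of the runs of 36 bases in the ph-p peak and all of them in the ph-d peak. The longest aligned stretch, in the gene bodies (X 2126824 to 2131227 at ph-p, 2116869 to 2121323 at ph-d), was 92.0% identical. There 44.0% of runs of 36 bases and 57.0% of runs of 100 bases occurred once at ph-p, and 44.6% and 57.5% at ph-d. No reproducible summit lay in this stretch at either copy. Read length and the treatment of reads with several matches were not stated in the labels or file notes, so a lack of unique reads and a lack of binding cannot be told apart there.

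Psc (FBgn0005624, 2R 12965997 to 12980994) encodes a complex 1 subunit that compacts chromatin. It had 1 reproducible summit, in an intron at 2R 12975584, 5074 bp downstream of its nearest start site. Relative signal there was 2.41, 2.07 and 2.23 in replicates 1, 2 and 3 (2.24 ± 0.168, SD, n = 3), and the peak was 171 bp wide, nearly as narrow as that of ph-d. Near its start site the pooled summit at 2R 12980792 had a signal of 98.7, under the lowest of the reproducible set. The strongest promoter peaks of the single replicates there were 0.808, 0.599 and 0.614, with summits at 2R 12980672, 12980944 and 12980831. With all pooled peaks at a q-value of at most 0.01, this promoter counted and 6 members had a promoter summit. Su(z)2 (FBgn0265623, 2R), the relative of Psc, had 5 relaxed summits and none reproducible. The strongest, in an intron at 2R 13005311, had 0.433, 0.502 and 0.280 (0.405 ± 0.113).

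The remaining complex 1 genes showed weak peaks. At Pc (FBgn0003042, 3L), the H3K27me3 reader, the strongest summit lay 23 bp upstream of the start site, at 3L 21318043. Its relative signal was 0.390, 0.314 and 0.312 in replicates 1, 2 and 3 (0.339 ± 0.0445, SD, n = 3). All 3 replicates listed it, but its pooled signal of 67.9 was 62.5% of the lowest in the reproducible set. At Sce (FBgn0003330, 3R), the H2A ubiquitin ligase, the only pooled summit lay in a coding exon at 3R 27681441, with 0.298 in replicate 1 and no peak within 100 bp in replicates 2 and 3. The lowest relative signal listed was 0.249, 0.173 and 0.228 in the 3 replicates, so these values lie near the floor of the lists.

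pho (FBgn0002521, chromosome 4), the DNA-binding member, had 1 reproducible summit at 4 1181934, 306 bp upstream of its start site. Relative signal was 0.757, 0.639 and 0.640 in replicates 1, 2 and 3 (0.679 ± 0.0680, SD, n = 3), with a pooled signal of 118.2. It was listed in each replicate at a level below that of a typical reproducible peak.

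Among the complex 2 genes, E(z) (FBgn0000629, 3L), the methyltransferase, and Su(z)12 (FBgn0020887, 3L), a core subunit needed for its activity, had reproducible promoter summits. At E(z) the summit at 3L 10638103 lay 27 bp downstream of the start site, with 0.652 in replicate 1 and 0.944 in replicate 3 (0.798 ± 0.207, SD, n = 2). In replicate 2 no summit lay within 100 bp, and the nearest, at 3L 10637952, had 0.784. A start site of Cnep1r2 was also within 500 bp, so the summit cannot be assigned to either gene. At Su(z)12 the stronger summit, 3L 19923326, lay 136 bp downstream of the start site, with 1.06, 1.20 and 1.82 (1.36 ± 0.405, n = 3). The weaker, 3L 19923560, lay 98 bp upstream, with 0.657, 0.537 and 0.645 (0.613 ± 0.0666). Start sites of Pfdn6 were within 500 bp of both. esc (FBgn0000588, 2L), a WD-repeat subunit, had no reproducible summit. Its strongest pooled summit, 284 bp upstream of the start site and inside an intron of Pde1c, was listed with 0.351 in replicate 3 alone. Elsewhere near the start site replicate 1 had 0.490 at 2L 11829866 and replicate 3 had 0.575 at 2L 11829417, and replicate 2 had no peak in the window.

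The bases under the promoter summits of lowest pooled signal in the reproducible set of the members, at pho (4:1181904-1181964) and upstream of Su(z)12 (3L:19923530-19923590), are shown on the minus strand with the summit base in capitals.
pho summit: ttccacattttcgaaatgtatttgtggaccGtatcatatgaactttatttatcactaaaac
Su(z)12 summit: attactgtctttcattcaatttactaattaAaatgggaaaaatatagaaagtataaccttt
In all, 9 short motifs were searched for on both strands, from 50 bases before to 50 bases after each of the 12 member summits. GAAAA occurred in 4 of the 12 (a pair at ph-p, the strongest summit among them, pho, and the upstream Su(z)12 summit), against 46.5% of all reproducible windows. TGTGAC occurred in 1, at ph-p X 2136542, against 4.02%. The letters GAGAG (11.2% of all windows), GCCAT (15.5%), CGATA (17.0%), TATCGATA, which contains CGATA (2.25%), GGGCGG (1.59%), CACGTG (1.04%) and GGTCACAC (0.860%) were in none of the 12, and 8 of the 12 windows held none of the 9.

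The order of the members by mean relative signal at the strongest summit was ph-p, Psc, ph-d, Su(z)12, E(z), pho, Su(z)2, esc, Pc and Sce. The replicate ranges did not overlap between ph-p and Psc, nor between Psc and ph-d. ph-d (lowest 1.83) and Su(z)12 (highest 1.82) barely separated, and within replicate 3 they were 1.92 and 1.82. E(z) and pho overlapped. The lowest pho value, 0.639, was above the highest at the strongest Su(z)2 summit, 0.502. Elsewhere in the Su(z)2 window replicate 3 reached 0.530. Among Su(z)2, esc, Pc and Sce the values overlapped, with a single replicate each for esc and Sce. By the highest value anywhere in the window, esc (mean 0.532, replicates 1 and 3) was above Su(z)2 (mean 0.488, n = 3). The order of these genes thus depends on the summit chosen.

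Of the member summits, 11 of the 12 reproducible ones were listed within 100 bp in all 3 replicates, against 91.0% of all reproducible summits. Of the other 18 pooled member summits, 5 were, against 18.9% of all pooled summits outside the reproducible set.

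Other genes of the pathway were read in the same windows. Of 16 further Polycomb genes, 9 had a reproducible summit and 5 had one within 500 bp of a start site. All 16 had a relaxed summit. The shares of all genes were 22.2%, 14.3% and 62.1%, and the 10 members gave 6, 5 and 10. The 16 windows held 20 reproducible summits at 0.0849 per kb, but jing alone held 5 of them in a window of 122 kb. The longest member window was 17.0 kb, so densities and shares of the lists are not directly comparable. The highest relative signal, 5.66 ± 0.406 (SD, n = 3), was in the window of phol, the pho paralog, and it lay 1523 bp upstream of phol with start sites of CG3437 and CG3552 within 500 bp. Dsp1, an HMG-box protein, had 3.30 ± 0.127, at 601 bp upstream of its start site. caly, the deubiquitinase Calypso, had 1.41 ± 0.297, with start sites of CG42837, CG44242 and Lipt1 within 500 bp. Sfmbt, the partner of Pho, had 1.29 ± 0.290 at a promoter shared with CG43925 and CG5439. jing had 1.07 ± 0.0774 (n = 2) at the strongest of its 5 summits, 44540 bp from its nearest start site. Kdm2, a histone demethylase, also had 5 summits, the strongest at 1.03 ± 0.0901, 1955 bp from its nearest start site. escl, the esc paralog, had no reproducible summit, as esc itself.

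Trithorax genes as a group oppose Polycomb silencing, though single genes of the list used here may not. Of these 18 genes, 12 had a reproducible summit, 9 a promoter one and 16 a relaxed one. The shares of all genes were again 22.2%, 14.3% and 62.1%. The list held 27 reproducible summits at 0.0926 per kb, in windows of up to 42.1 kb. The strongest were at osa, a chromatin remodeller subunit (6.44 ± 0.688), and Trl, which encodes GAGA factor (5.50 ± 0.687; SD, n = 3 each), both over 500 bp from a start site of the gene. trx, a histone methyltransferase, had 3.16 ± 0.246, at 3029 bp from its nearest start site. kis had 2.27 ± 0.440 (at 1598 bp, with a start site of lncRNA:CR44222 within 500 bp). mor had 1.75 ± 0.246 (at 1548 bp) and lolal 1.58 ± 0.263 (at 15 bp). In each of the 3 replicates the strongest ph-p summit was above the strongest summit of every gene of these 2 lists, whose highest was 7.08 at osa in replicate 2. CG16863 itself had no reproducible summit and 1 pooled summit in its window.

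**Figure D5:**
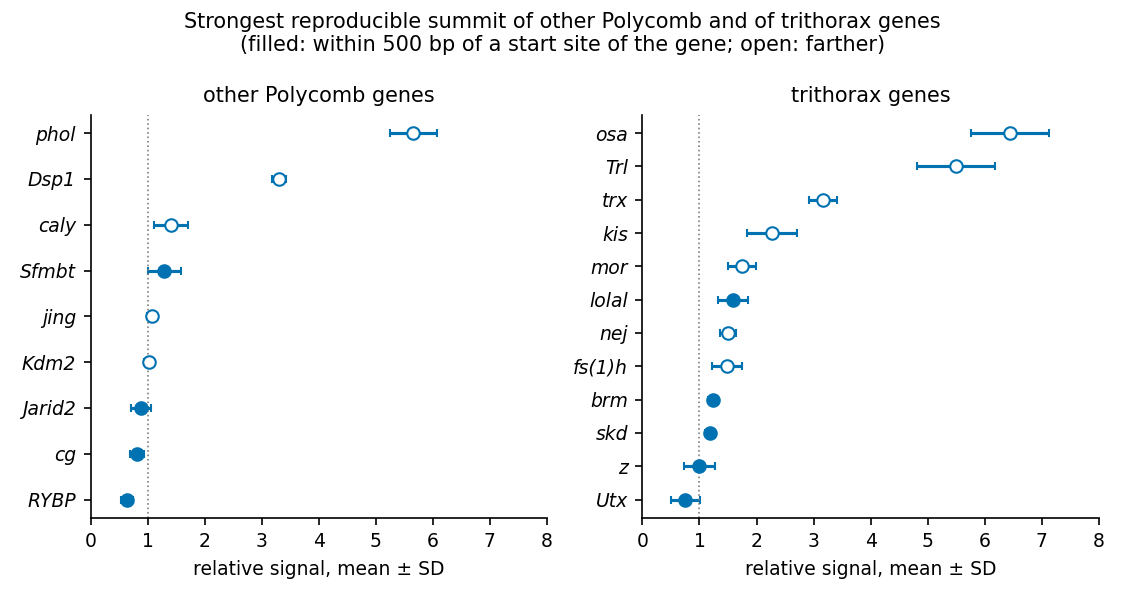
Relative signal, mean ± SD over replicates (horizontal, linear axis), at the strongest reproducible summit of each other Polycomb gene (left) and each trithorax gene (right) that had one; filled points lie within 500 bp of a start site of the gene, open points farther. phol, osa and Trl reach 5.50 to 6.44, below the 11.7 of ph-p, and their summits lie more than 500 bp from the start sites of the genes.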

How the data were processed

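Binding was mapped in 3 biological replicates. The labels give sonication and a fragment size of 200 to 800 bp. The authors deposited peak lists on dm6, with a signal value per peak and a −log10 q-value per peak; signal values of the replicate lists were scaled by the replicate median at reproducible summits. Aligner, peak caller and depth: not given in the sources used here. Lists made on dm3 were not used. The q-value served only to set a looser peak set (at most 0.01).

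Summits (start plus offset) were joined to replicate peaks within 100 bp, and annotation was that of Ensembl (release 115, BDGP6.54). The copies were aligned with BLASTN 2.17.0, and tables were made with Python 3.11.15, numpy 2.4.6 and pandas 2.3.3. Gene windows and joins were tested on simulated data. The members and gene lists were chosen with earlier results of these data known. Named genes are the members, neighbours with a start site within 500 bp of a reproducible member summit, phol and escl, up to 6 genes of each other list by relative signal, the 4 genes ranked next to ph-p, and CG16863. Genes near summits of the other lists, Pde1c and the genes with 5 summits were added after their values were seen. All 34 other list names matched, 3 through another spelling. Replicates are separate biological samples, and permutation over the 3 pairs was the only test.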

Additional observations from a re-analysis of the deposited data

How the results depend on the processing

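Against 6 member genes, 12 summits and 5 promoter genes, keeping the 1977 reproducible peaks at or above their median signal gave 4, 7 and 2. A start-site distance of 200 bp gave 3 promoter genes. Peaks shared by the 2 replicates left when 1 was left out (2766 to 2854 peaks, so a smaller set) gave 5 to 6 genes, 8 to 11 summits and 3 to 4 promoter genes. A q-value of at most 0.01 (4878 peaks) gave 6, 13 and 6, and 5 kb upstream gave 7 genes and 15 summits. Scaled to the median of all relaxed peaks, ph-p had 37.5, since that median is lower; the other members moved likewise. Leaving out a replicate gave 11.1 to 12.2 for ph-p, and 2.56 to 2.65 for the log2 ratio of ph-p to ph-d, which was 2.24 with summed signal and 4.12 with 500 bp upstream. Joining within 200 bp gave 0.277 for Sce and 0.420 for esc, each from a further replicate. No direction reversed under these settings. Depth is unknown, so no counting limit can be given for genes without a listed peak.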
